A study of Mus musculus with 12 samples.

Results

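Forkhead transcription factors are a gene family named for the winged helix DNA-binding domain they share. All 44 protein-coding genes of the mouse annotation (GENCODE M21, build GRCm38) whose symbol is Fox followed by a letter from a to s and a number were taken, of 22028 protein-coding genes in all. The assay was OMNI-ATAC-seq, where a transposase cuts open chromatin and leaves sequencing adapters in it. The cells were mouse embryonic fibroblasts (MEFs), sorted as THY1+, and embryonic stem cells of the mouse (mESCs), gated as THY1-, SSEA1+ and EPCAM+, both of a C57/Bl6 background and with no treatment named. Each cell type had 3 libraries from biological replicate samples, MEF libraries 1, 2 and 4 and mESC libraries 1, 3 and 5, and how many embryos or stem cell lines they came from is not given in the sources used here. Each of the 6 libraries was read on Illumina's HiSeqX10 and on BGI's DNBSEQ-G400, after conversion of the library to DNA nanoballs for BGI, which gives 12 samples. A peak, a region of 502 bases around a summit of transposase cuts, was assigned to a forkhead gene when it overlapped the gene body extended by 5 kb on both sides. By this rule 233 of 91354 peaks of the BGI peak set and 241 of 87027 peaks of the Illumina peak set belonged to the family, and no peak belonged to more than one member. A peak was called within a promoter when a start site (TSS) of the member's transcripts was no more than 1 kb away.

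Many forkhead proteins, though not all, bind DNA as monomers at sites around the core TGTTTAC. Several members, such as the FOXA proteins, open closed chromatin for other factors. FOXH1 brings SMAD proteins to the targets of Nodal and activin signalling in the early embryo, FOXD3 and FOXA2 act in the epiblast, the neural crest and the endoderm, and the FOXC, FOXF, FOXL1, FOXD1, FOXD2 and FOXS1 factors act in mesenchyme and vessel walls. The FOXO factors are held out of the nucleus by AKT, FOXM1 drives genes of cell division, and FOXJ2, FOXJ3, FOXK, FOXN2, FOXN3, FOXP1 and FOXP4 are made in many tissues. The remaining members are largely restricted to one lineage, among them Foxj1 in ciliated cells, Foxn1 in the thymus and Foxp3 in regulatory T cells.

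The promoters of 3 members show the range of the family, since Foxr1 and Foxd3 gained accessibility in mESCs and Foxc1 lost it. The sequences run from 250 bases before to 50 bases after the start site, are written 5′ to 3′ along the gene, and come from the RefSeq promoter table for GRCm38.p6, with CG dinucleotides in capitals. The Foxr1 window lies on the minus strand at chr9:44440819-44441118 and shares 204 of its 300 bases with the promoter peak, the Foxd3 window lies on the plus strand at chr4:99656049-99656348 and shares 285, and the Foxc1 window lies on the plus strand at chr13:31806396-31806695 inside the peak.
Foxr1: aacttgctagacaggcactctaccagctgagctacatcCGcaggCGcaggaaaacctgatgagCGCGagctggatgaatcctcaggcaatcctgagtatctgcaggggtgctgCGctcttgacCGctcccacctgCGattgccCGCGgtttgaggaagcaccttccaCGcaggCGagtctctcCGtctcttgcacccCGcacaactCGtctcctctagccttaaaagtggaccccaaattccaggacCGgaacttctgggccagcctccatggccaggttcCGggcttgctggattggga
Foxd3: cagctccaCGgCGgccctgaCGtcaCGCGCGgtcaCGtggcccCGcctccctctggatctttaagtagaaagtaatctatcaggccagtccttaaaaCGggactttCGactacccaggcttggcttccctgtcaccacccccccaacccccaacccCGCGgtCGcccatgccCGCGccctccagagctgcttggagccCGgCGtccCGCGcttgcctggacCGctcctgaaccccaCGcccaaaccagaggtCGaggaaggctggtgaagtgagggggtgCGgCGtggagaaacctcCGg
Foxc1: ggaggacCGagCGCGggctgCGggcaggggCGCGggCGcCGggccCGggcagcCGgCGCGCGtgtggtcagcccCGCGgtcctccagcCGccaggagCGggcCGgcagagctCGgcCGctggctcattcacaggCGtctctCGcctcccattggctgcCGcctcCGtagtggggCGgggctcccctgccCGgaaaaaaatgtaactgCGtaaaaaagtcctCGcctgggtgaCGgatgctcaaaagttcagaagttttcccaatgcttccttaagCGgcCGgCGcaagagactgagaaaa
Foxr1 held 16 CG dinucleotides, Foxd3 25 and Foxc1 32. The table matched 28 of the 44 members with 33 promoters. Their median GC content was 62.7% against 52.7% over all 32851 promoters of the table, and the median ratio of observed to expected CG dinucleotides was 0.68 against 0.384. Members not in the table included Foxb1, Foxc2, Foxe1, Foxf1, Foxh1, Foxj1, Foxk1, Foxl1, Foxm1, Foxn2, Foxo4, Foxo6, Foxp2, Foxq1 and Foxs1.

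In all, 3 short motifs were searched for on both strands, TGTTTAC (forkhead), TGANTCA (AP-1) and ATGCAAAT (octamer), and no match of one string can lie inside a match of another. The forkhead string was in 1 of the 33 promoters of the family and in 3.65% of all promoters, the AP-1 string in 2 and in 7.81%, and the octamer string in 0 and in 1.74%. Within peaks, 3.0% of the 233 BGI peaks of the family held the forkhead string against 5.93% of all 91354 peaks of the same length, 13.7% held the AP-1 string against 25.2%, and 2.58% held the octamer string against 3.21%. The family's peaks had a median GC content of 55.2% against 51.0%, and a median ratio of observed to expected CG dinucleotides of 0.41 against 0.283. Whether base composition accounts for the difference in strings was not tested. The forkhead string was in 0 of the 103 peaks called higher in mESCs and in 4 of the 88 called lower, where all such peaks of the set held it in 6.49% and 5.79%. The AP-1 string was in 11.7% of the family's higher peaks and 20.5% of its lower ones, beside 18.6% and 35.6% over all peaks so called. A match is a description of letters, not of a bound site. Windows of 300 bases within peak 7 of Foxn3, peak 17 of Foxp1 and peak 5 of Foxn2, numbered along the chromosome within each gene on the BGI peak set, show 1 peak for each string, chosen after their values were seen. They are read from GRCm38.p6 on the plus strand at chr12:99299918-99300217, chr6:99160044-99160343 and chr17:88462688-88462987, with the octamer, forkhead and AP-1 matches in capitals.
Foxn3 peak 7: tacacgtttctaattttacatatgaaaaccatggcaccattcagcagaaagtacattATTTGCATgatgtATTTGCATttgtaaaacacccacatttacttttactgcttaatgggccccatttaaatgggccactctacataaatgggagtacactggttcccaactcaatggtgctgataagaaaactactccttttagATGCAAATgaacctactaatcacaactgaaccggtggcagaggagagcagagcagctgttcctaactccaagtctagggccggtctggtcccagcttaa
Foxp1 peak 17: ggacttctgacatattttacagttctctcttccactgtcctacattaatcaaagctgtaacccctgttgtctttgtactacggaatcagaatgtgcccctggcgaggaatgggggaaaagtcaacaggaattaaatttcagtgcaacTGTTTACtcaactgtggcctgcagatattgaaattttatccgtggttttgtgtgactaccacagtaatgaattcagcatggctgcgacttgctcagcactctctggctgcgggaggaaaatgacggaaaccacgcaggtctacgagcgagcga
Foxn2 peak 5: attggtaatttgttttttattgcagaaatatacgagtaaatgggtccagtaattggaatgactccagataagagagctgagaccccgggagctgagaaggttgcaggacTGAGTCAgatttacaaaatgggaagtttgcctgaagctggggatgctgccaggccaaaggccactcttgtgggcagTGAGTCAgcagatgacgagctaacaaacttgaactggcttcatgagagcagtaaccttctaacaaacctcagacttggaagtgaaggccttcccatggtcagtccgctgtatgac
The Foxn3 peak, in an intron, held 3 octamer matches. It had 0.739, 0.845 and 0.199 CPM in the MEF libraries and 21.9, 21.1 and 22.4 CPM in the mESC libraries, given here and below in the order of libraries 1, 2 and 4 for MEFs and 1, 3 and 5 for mESCs. CPM are the reads of a peak over all reads in the peaks of the set, scaled to a common total. The groups did not overlap, and the log2 fold change, mESC over MEF here and throughout, was 5.11 ± 0.26 (SE), with an adjusted p of 1.10e-11 from edgeR's quasi-likelihood F test over all peaks. The intronic Foxp1 peak with 1 forkhead match went the other way, from 13.8 ± 1.65 CPM in MEFs to 0.366 ± 0.111 CPM in mESCs (SD, n = 3 libraries), a log2 fold change of -5.27 ± 0.27 (SE). The Foxn2 peak with 2 AP-1 matches, which covers an exon, fell from 8.34 ± 2.42 CPM in MEFs to 0.572 ± 0.281 CPM in mESCs, a log2 fold change of -3.92 ± 0.36 (SE). In this bulk assay, fewer cells with an open site and less signal per cell cannot be told apart.

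Reads in peaks ranged from 20085886 to 21662775 in MEF samples and from 15860985 to 16911482 in mESC samples of the BGI set, and from 20127546 to 21441767 and from 15996202 to 16958488 on the Illumina set. The cell labels were checked against promoter peaks of marker genes. All 6 mESC markers (Pou5f1, Nanog, Esrrb, Zfp42, Tdgf1 and Epcam) were higher in mESCs, summing to 13.4 to 14.6 CPM in MEF and 170.0 to 201.0 CPM in mESC libraries on BGI, and all 7 MEF markers (Thy1, Col1a1, Col1a2, Col3a1, Prrx1, Twist2 and Pdgfrb) were lower, at 213.0 to 250.0 and 48.4 to 49.4 CPM. Epcam and Thy1 were sort markers, so the gate fixed their part. Blood and epithelial markers had 0 peaks among 5 genes, and the 2 endothelial markers with a peak were not called. Among the endoderm, neural and muscle markers, Sox17, Gata4, Sox1, Neurog2 and Myod1 were higher in mESCs on both platforms, Gata6 was lower, Afp was not called on BGI and had no promoter peak on Illumina, Myf5 had no peak, and the Pax6 peaks with the most reads were higher on BGI and lower on Illumina.

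Of the forkhead peaks 82.0% were called on BGI, against 84.1% of all peaks. On BGI, 103 of the 233 peaks were higher in mESCs and 88 were lower at an adjusted p under 0.05, where 40.9% of all peaks were higher and 43.2% lower. That is 44.2% and 37.8% of the family's peaks. On Illumina 110 of the 241 were higher and 88 lower, beside 42.1% and 42.4% of all peaks. MEF and mESC values were fully apart at 198 peaks of the family on BGI and at 203 on Illumina, or 85.0% and 84.2%, near the 85.1% and 85.6% of all peaks. The median log2 fold change over the family was 0.14 on BGI and 0.19 on Illumina, beside -0.08 and -0.03 over all peaks. All 233 and 241 peaks passed the filter on low counts. A peak entered a set when it was seen in samples of either cell type, so a peak found in one cell type alone was bound to differ, which holds for the family and for all peaks alike. Of the family's peaks, 99 on BGI and 96 on Illumina lay nearer to a TSS of another gene, and with the rest alone 48 BGI peaks were higher and 58 lower. Without the 2 members with the most peaks, Foxp1 and Foxn3, 80 of the remaining 164 BGI peaks were higher and 46 lower. On BGI 18 members had called peaks in mESC direction only, 6 had only lower ones, and 16 had both. On Illumina these were 19, 5 and 17. Such counts depend on how many peaks a gene has, and the share over all genes was not taken.

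Foxi1, which acts in the inner ear and in acid-secreting cells, had no peak in either set, and Foxr2 had none in the Illumina set. The peak calls of single samples, before the authors merged them, showed what lay under these gaps. At Foxi1, 1 or 2 weak summits were called in each of the 6 mESC samples, with a highest −log10 p of 7.46 on BGI and 5.99 on Illumina, and 1 of them lay within the promoter, in a BGI sample. In MEFs 2 of 3 samples on each platform had a single summit. At Foxr2, by contrast, no summit was called in any of the 6 MEF samples, and each of the 6 mESC samples had 1 to 3 at the promoter, with a highest −log10 p of 21.0 on BGI and 17.1 on Illumina. The window mattered for these counts, since with the gene body alone 4 members had no BGI peak, and with 10 kb on both sides 1 member had no Illumina peak. Foxn1 and Foxq1 had peaks but none at a promoter, nor did Foxl1 on BGI and Foxd4 on Illumina.

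For each member the promoter peak with the most reads was compared, which gave 40 genes on BGI and 39 on Illumina. On BGI 15 were higher in mESCs and 13 lower, beside 22.1% and 44.1% of all protein-coding genes by the same rule, and on Illumina 13 and 14, beside 22.5% and 45.8%. Counting every promoter peak, 24 of 80 were higher and 29 lower on BGI, where promoter peaks of all genes were higher in 31.3% and lower in 41.0%, and 30 of 88 were higher and 31 lower on Illumina, beside 31.6% and 42.4%. The lists of genes by role were split as follows. On BGI the early embryo list had 3 of 3 promoters higher, the list of other lineages 11 of 18 higher and 3 lower, the mesenchyme list 0 of 7 higher and 4 lower, and the broadly expressed list 1 of 12 higher and 6 lower. On Illumina the same lists had 3 of 3, 10 of 16, 0 of 8 and 0 of 12 higher and 0, 3, 5 and 6 lower. The medians of the log2 fold change on BGI were 2.09, 0.59, -0.61 and -0.31 in this order.

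**Figure D1:**
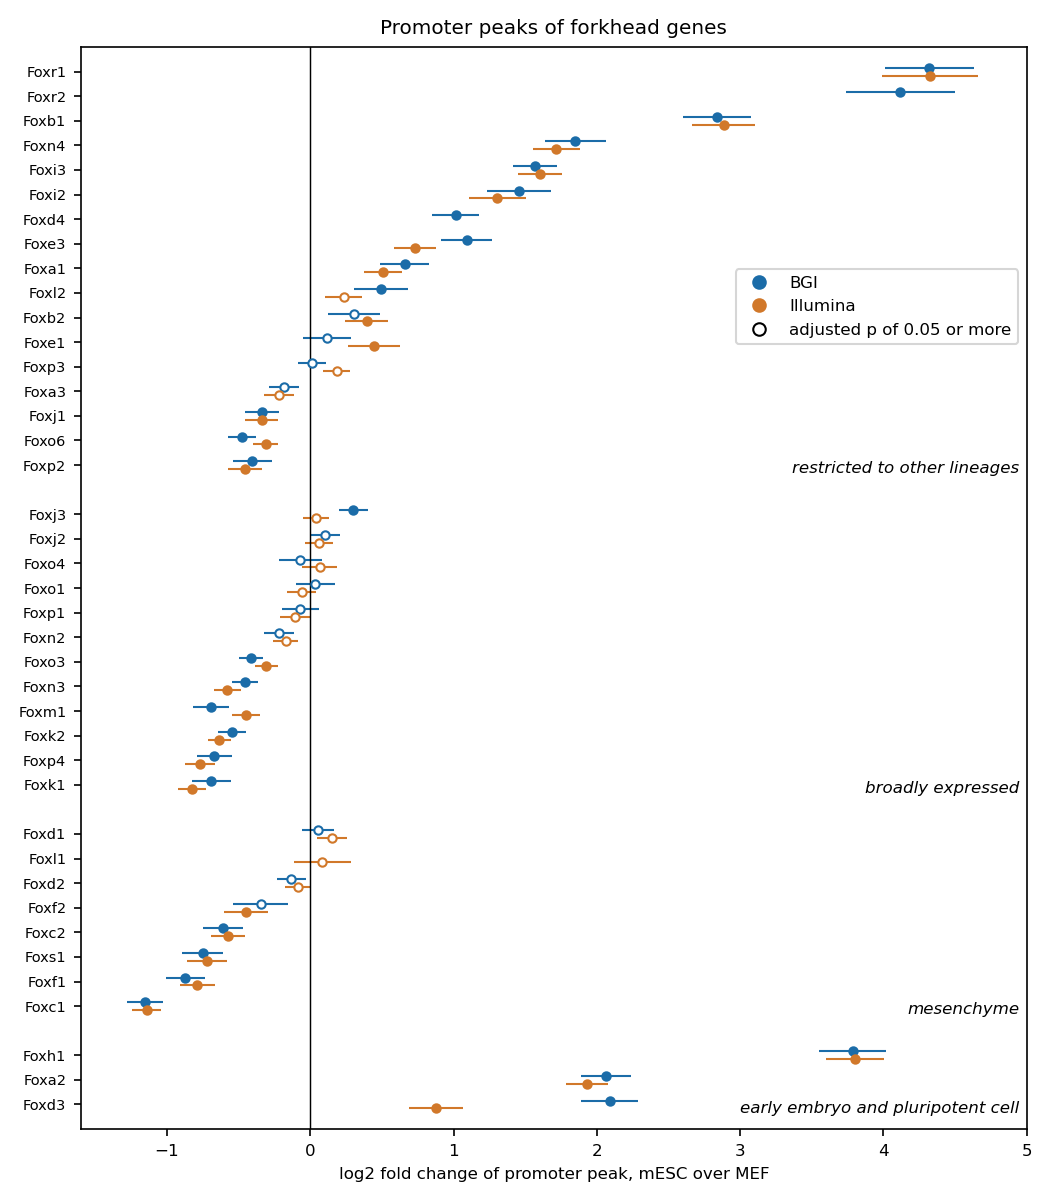
Log2 fold change (mESC over MEF, x axis) of 1 promoter peak a gene for the forkhead genes shown, grouped by role, on BGI and Illumina; bars are standard errors and open points have an adjusted p of 0.05 or more. The gains reach 4.32 at Foxr1, the losses stop at -1.15 at Foxc1, and all 3 early embryo genes lie to the right of 0.

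The early embryo genes were higher in mESCs at all 3 promoters, beside 22.1% of all protein-coding genes by the same rule on BGI. The Foxh1 promoter peak (chr15:76669606-76670107, 54 bases before the TSS at its centre) had 0.785, 0.795 and 1.15 CPM in the MEF libraries and 12.6, 14.3 and 12.6 CPM in the mESC libraries. Every mESC library exceeded every MEF library, and the log2 fold change was 3.79 ± 0.23 (SE) (adjusted p = 8.53e-11) on BGI and 3.801 ± 0.20 (SE) on Illumina. The Foxd3 promoter peak (chr4:99655832-99656333) had 2.49, 2.73 and 3.19 CPM in the MEF libraries and 10.7, 14.5 and 12.3 CPM in the mESC libraries, again without overlap, with a log2 fold change of 2.09 ± 0.20 (SE) (adjusted p = 2.29e-08). On Illumina the peak with the most reads lay 1056 bases after the start and had 0.88, and the peak that matches the BGI one had 1.66. At Foxa2 (chr2:148046134-148046635) the values were 3.23, 4.03 and 3.34 CPM in the MEF libraries and 16.01, 15.8 and 14.7 CPM in the mESC libraries, and the log2 fold change was 2.06 ± 0.17 (SE) on BGI and 1.93 ± 0.15 (SE) on Illumina. Of the 12 BGI peaks of these 3 genes 11 were higher in mESCs and 0 lower, beside 40.9% and 43.2% of all peaks.

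Gains of similar size were found at genes restricted to other lineages. The Foxr1 promoter peak (chr9:44440915-44441416) had 0.231, 0.646 and 0.747 CPM in the MEF libraries and 10.5, 9.82 and 13.7 CPM in the mESC libraries, a log2 fold change of 4.32 ± 0.31 (SE) on BGI (adjusted p = 6.38e-10) and 4.32 ± 0.34 (SE) on Illumina. The MEF libraries were close to 0, no promoter summit was called in any MEF sample, and every mESC sample had one. The X-linked Foxr2 (chrX:153118973-153119474) had 0.277, 0.497 and 0.149 CPM in the MEF libraries and 5.93, 5.32 and 5.902 CPM in the mESC libraries and a log2 fold change of 4.12 ± 0.38 (SE), also without overlap. Foxb1, a gene of the developing hypothalamus, had 1.29, 1.79 and 1.59 CPM in the MEF libraries and 10.4, 14.7 and 9.94 CPM in the mESC libraries and a log2 fold change of 2.84 ± 0.24 (SE). Its peak also covers a TSS of B230323A14Rik.

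The next gains were smaller and began from higher CPM in MEFs. Foxn4, a gene of retinal progenitors, had 2.22, 3.68 and 3.24 CPM in the MEF libraries and 11.2, 12.9 and 10.3 CPM in the mESC libraries, and a log2 fold change of 1.85 ± 0.21 (SE). Foxi3, a gene of the ectodermal placodes, had 6.37, 5.17 and 6.02 CPM in the MEF libraries and 16.4, 18.4 and 19.9 CPM in the mESC libraries and 1.57 ± 0.15 (SE) on the log2 scale, and Foxi2 had 2.68, 4.42 and 2.74 CPM in the MEF libraries and 9.58, 8.75 and 10 CPM in the mESC libraries and 1.46 ± 0.22 (SE). At each of these the groups did not overlap. Foxe3, a lens gene, had 4.66, 5.67 and 6.22 CPM in the MEF libraries and 14, 11.8 and 11.1 CPM in the mESC libraries, with a log2 fold change of 1.09 ± 0.18 (SE) on BGI and 0.73 ± 0.15 (SE) on Illumina. The groups did not overlap there either. Foxd4 rose by 1.01 on BGI, Foxa1, a pioneer factor of liver, breast and prostate, by 0.66 and Foxl2, a gene of ovarian granulosa cells, by 0.50 on the log2 scale. The Foxl2 peak also covers a TSS of Foxl2os. The Foxl2 call rested on single libraries, since its log2 fold change was 0.39 without MEF library 2 (adjusted p = 0.0884) and 0.33 without mESC library 3 (adjusted p = 0.138), and on Illumina another promoter peak of Foxl2 had 0.23 (adjusted p = 0.0988). Foxa3, a liver gene, had -0.18 at its promoter peak with the most reads, which was not called, and 1.12 at a second one nearer to the start, which was higher. The first also covers a TSS of Sympk. The called losses of this list were at Foxo6, a FOXO gene of the brain (-0.47), Foxp2, known from human speech (-0.40), and Foxj1, the regulator of motile cilia (-0.34). The call at the promoter peak of Foxj1 on BGI was lost without MEF library 1 (-0.30, adjusted p = 0.0575) and without mESC library 1 (-0.26, adjusted p = 0.0692), and the Foxp2 values of the groups overlapped on BGI.

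**Figure D2:**
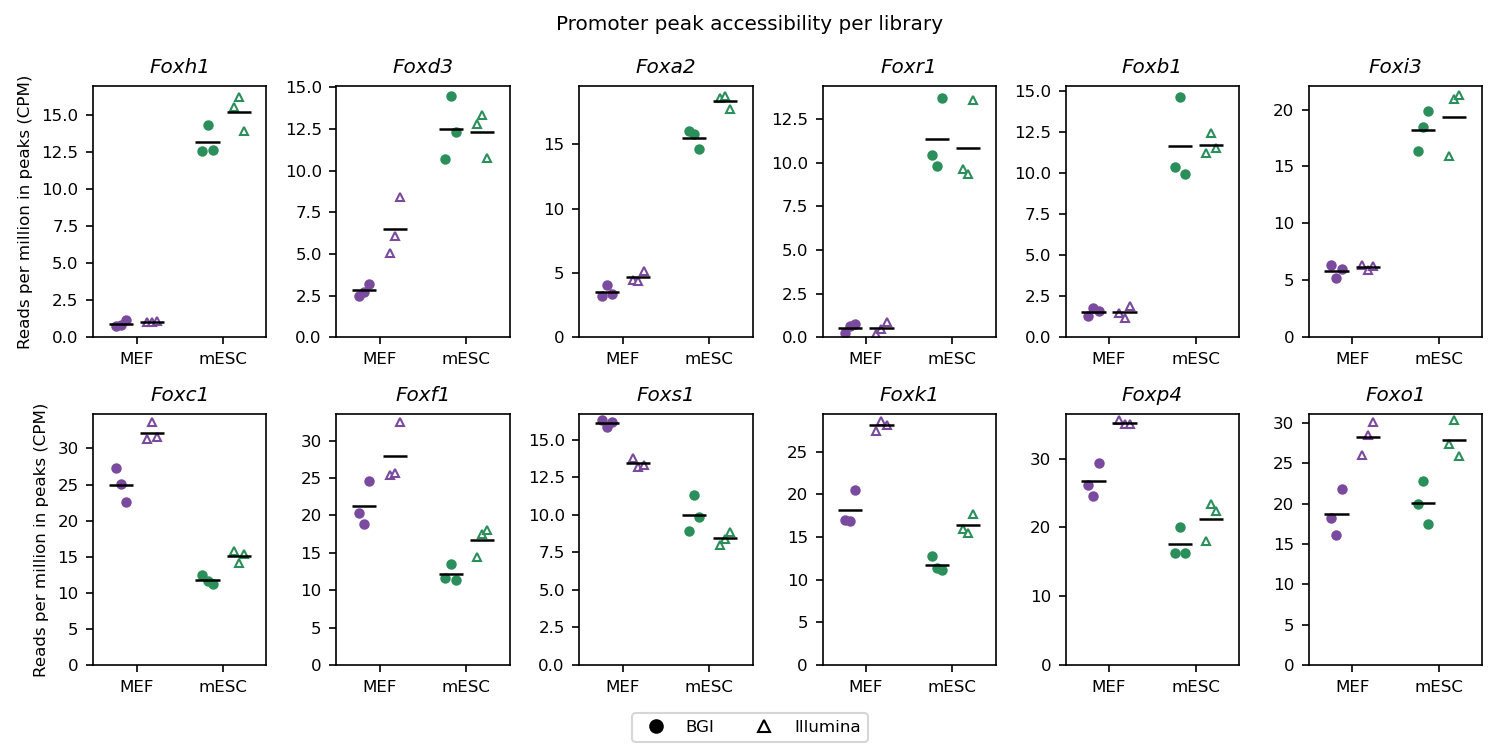
CPM (y axis, starting at 0) of the promoter peak of selected forkhead genes in each MEF and mESC library, circles for BGI and triangles for Illumina; horizontal marks are group means. The mESC libraries lie above all MEF libraries at Foxh1 and Foxr1, and below them at Foxc1.

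At mesenchymal members 4 of the 7 promoter peaks with the most reads were lower in mESCs on BGI and none was higher. By the same rule 44.1% of all protein-coding genes were lower and 22.1% higher. Over all peaks of the list 10 of 32 were higher and 14 lower on BGI, beside 40.9% and 43.2% of all peaks, and 13 and 16 of 39 on Illumina. Foxc1, which acts in mesoderm and the eye, had 27.3, 25.1 and 22.6 CPM in the MEF libraries and 12.4, 11.7 and 11.2 CPM in the mESC libraries at chr13:31806290-31806791. The MEF libraries were all higher, with a log2 fold change of -1.15 ± 0.13 (SE) on BGI (adjusted p = 1.31e-07) and -1.14 ± 0.10 (SE) on Illumina. Foxf1, a gene of lung and gut mesenchyme, had 20.3, 18.8 and 24.6 CPM in the MEF libraries and 11.6, 13.5 and 11.3 CPM in the mESC libraries, a log2 fold change of -0.87 ± 0.14 (SE), and Foxs1, a gene of perivascular cells, had 16.3, 15.8 and 16.2 CPM in the MEF libraries and 8.89, 11.3 and 9.81 CPM in the mESC libraries, a log2 fold change of -0.75 ± 0.14 (SE). Foxc2, a gene of lymphatic vessels, had 18.1, 15.2 and 15.8 CPM in the MEF libraries and 12.6, 10.7 and 10.4 CPM in the mESC libraries and -0.61 ± 0.14 (SE) on the log2 scale. At these 3 genes too the groups did not overlap. The other members of the list were not called on BGI. Foxd1, a gene of kidney stroma, had 18.2, 18.6 and 18.3 CPM in the MEF libraries and 19.8, 19.3 and 20.8 CPM in the mESC libraries, with a log2 fold change of 0.05 ± 0.11 (SE), so that all mESC values lay above the MEF values by a small margin. Foxd2 had 35.8, 33.3 and 40.8 CPM in the MEF libraries and 34.5, 37.02 and 33.4 CPM in the mESC libraries, which overlapped, with a log2 fold change of -0.13 ± 0.10 (SE). Foxf2, a gene of mesenchyme and pericytes, had 8.26, 9.54 and 11 CPM in the MEF libraries and 6.998, 10.1 and 6.58 CPM in the mESC libraries, with -0.34 ± 0.19 (SE) on BGI (adjusted p = 0.106) and -0.45 ± 0.15 (SE) on Illumina (adjusted p = 0.0115). One library decided the call at the promoter peak of Foxf2 on BGI, gained without mESC library 3 (-0.54, adjusted p = 0.0231), and at the promoter peak of Foxf2 on Illumina, lost without mESC library 1 (-0.33, adjusted p = 0.0669). Foxl1, a gene of the mesenchyme under the gut epithelium, had a promoter peak on Illumina alone, with 5.55, 5.42 and 6.94 CPM in the MEF libraries and 5.501, 7.19 and 6.88 CPM in the mESC libraries, which overlapped.

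At the broadly expressed members 6 of 12 promoters fell on BGI, near the 44.1% of all protein-coding genes by the same rule. All log2 fold changes lay between -0.69 and 0.30. The peaks called lower included those of Foxm1 (log2 fold change -0.69 ± 0.12 (SE)), Foxk1 (-0.69 ± 0.13 (SE)) and Foxp4 (-0.67 ± 0.12 (SE)). Foxm1 had 19.2, 20.9 and 24.5 CPM in the MEF libraries and 14.8, 13.4 and 13.5 CPM in the mESC libraries, with a log2 fold change of -0.45 on Illumina, and its peak also covers a TSS of Rhno1. Foxk1, a regulator of glycolysis and autophagy, had 16.9, 16.9 and 20.6 CPM in the MEF libraries and 12.7, 11.3 and 11.2 CPM in the mESC libraries. Foxp4, a repressor of the FOXP group, had 26.1, 24.6 and 29.4 CPM in the MEF libraries and 16.3, 20.1 and 16.2 CPM in the mESC libraries. None of these overlapped between cell types. Foxk2 had 35.4, 31.5 and 32.9 CPM in the MEF libraries and 24.4, 23.7 and 23.5 CPM in the mESC libraries and -0.55 ± 0.10 (SE) on the log2 scale, and Foxn3, a gene of the DNA damage checkpoint, had 38.8, 41.8 and 42.97 CPM in the MEF libraries and 29.2, 33.2 and 31.9 CPM in the mESC libraries and -0.46 ± 0.09 (SE). These did not overlap either. For Foxo6, of the list of other lineages, the values were 34.2, 32.2 and 37.2 CPM in the MEF libraries and 24.2, 27.4 and 26.4 CPM in the mESC libraries. Foxo3, which restrains the activation of ovarian follicles, went from 72.9 ± 3.498 CPM in MEFs to 57.4 ± 4.53 CPM in mESCs (SD, n = 3) and fell by 0.41 on the log2 scale on BGI and by 0.31 on Illumina. Foxj3 rose by 0.30 on BGI and had 0.04 on Illumina, which was not called, and its peak also covers a TSS of Frg2f1. The promoter peaks with the most reads of Foxj2, Foxn2, Foxo1, Foxo4 and Foxp1 were not called on either platform, with log2 fold changes from -0.21 to 0.10 on BGI.

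Away from their own promoters, exon peaks of the family were mostly higher in mESCs. Of the 28 exon peaks on BGI 24 were higher in mESCs and 3 lower, or 85.7% and 10.7%, beside 56.8% and 29.2% of all exon peaks. On Illumina 25 of 30 were higher and 2 lower, beside 58.9% and 27.1%. The BGI exon peaks lay in 20 members, and in 16 of these every exon peak was higher. The median log2 fold change was 1.37 against 0.82 over all exon peaks. The 3 lower ones were in Foxk1, Foxn2 and Foxs1, and 16 of the 28 lay nearer to a TSS of another gene. The family's classes were set by the member's own starts and exons alone. The exon and intron classes of all peaks left out peaks within 1 kb of a TSS of any gene, so the sets are not alike. The family's BGI exon peaks had a median GC content of 58.8%, against 52.4% over all exon peaks. Their median ratio of observed to expected CG dinucleotides was 0.577 against 0.301. Intron peaks were lower more often on both platforms, and this balance turned without Foxp1. Of 91 on BGI 36 were higher and 49 lower, beside 42.9% and 48.3% of all intron peaks, and on Illumina 37 of 88 were higher and 45 lower, beside 44.5% and 46.9%. The median log2 fold change of these BGI peaks was -0.96, beside -0.27 over all intron peaks, and that of the Illumina peaks was -0.45, beside -0.12. Without Foxp1, left out after its values were seen, 33 of 63 were higher and 24 lower on BGI and 34 of 63 and 23 on Illumina, with medians of 0.61 and 0.69.

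**Figure D3:**
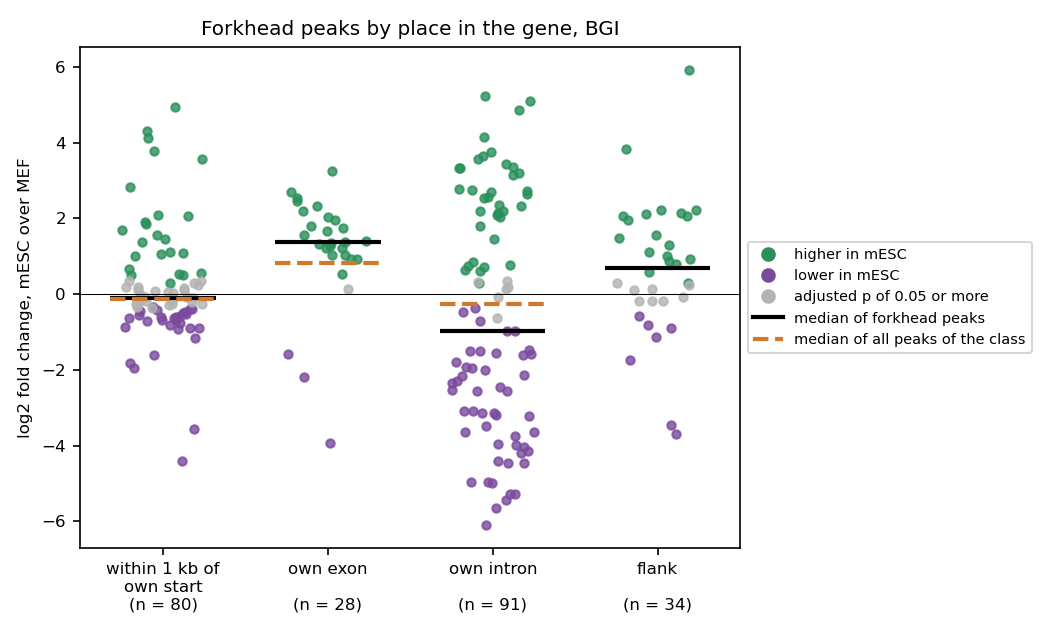
Log2 fold change (mESC over MEF, y axis) of every forkhead peak of the BGI set by place in the gene, coloured by call; solid lines are medians of the forkhead peaks and dashed lines medians of all peaks of the class. Exon peaks lie mostly above 0 (24 of 28 higher), and intron peaks spread to both sides, with 49 of 91 lower, or 24 of 63 without Foxp1. The classes of all peaks were set by starts and exons of any gene.

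Foxp1 and Foxn3 held 69 of the 233 BGI peaks and differed in balance. Foxp1, a repressor made in many tissues, had 36 peaks over a gene of 597384 bases (chr6:98925338-99522721), of which 5 were higher in mESCs and 27 lower, and on Illumina 6 of 32 were higher and 23 lower. Summed over its peaks, Foxp1 had 438.7 ± 24.4 CPM in MEFs and 167.4 ± 7.50 CPM in mESCs on BGI (SD, n = 3 libraries). Its lower peak with the lowest p, peak 22 (chr6:99327673-99328174, intron), had 31.7, 36.04 and 31.4 CPM in the MEF libraries and 1.14, 0.769 and 0.746 CPM in the mESC libraries. The groups did not overlap, and the log2 fold change was -5.29 ± 0.18 (SE) (adjusted p = 1.79e-13). Its higher peak with the lowest p, peak 20 (chr6:99240763-99241264, intron), had 0.369, 0.497 and 0.398 CPM in the MEF libraries and 15.9, 17.6 and 16.8 CPM in the mESC libraries, a log2 fold change of 5.23 ± 0.23 (SE). Foxn3 had 33 peaks over 373505 bases (chr12:99190078-99563582), of which 18 were higher and 15 lower on both platforms, and its summed CPM was 291.0 ± 7.59 in MEFs and 310.3 ± 22.2 in mESCs on BGI. Its lower peak with the lowest p on BGI, peak 11 in an intron, had 36.2, 38.6 and 34.05 CPM in the MEF libraries and 3.66, 3.08 and 2.48 CPM in the mESC libraries, without overlap and with a log2 fold change of -3.63 ± 0.15 (SE).

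**Figure D4:**
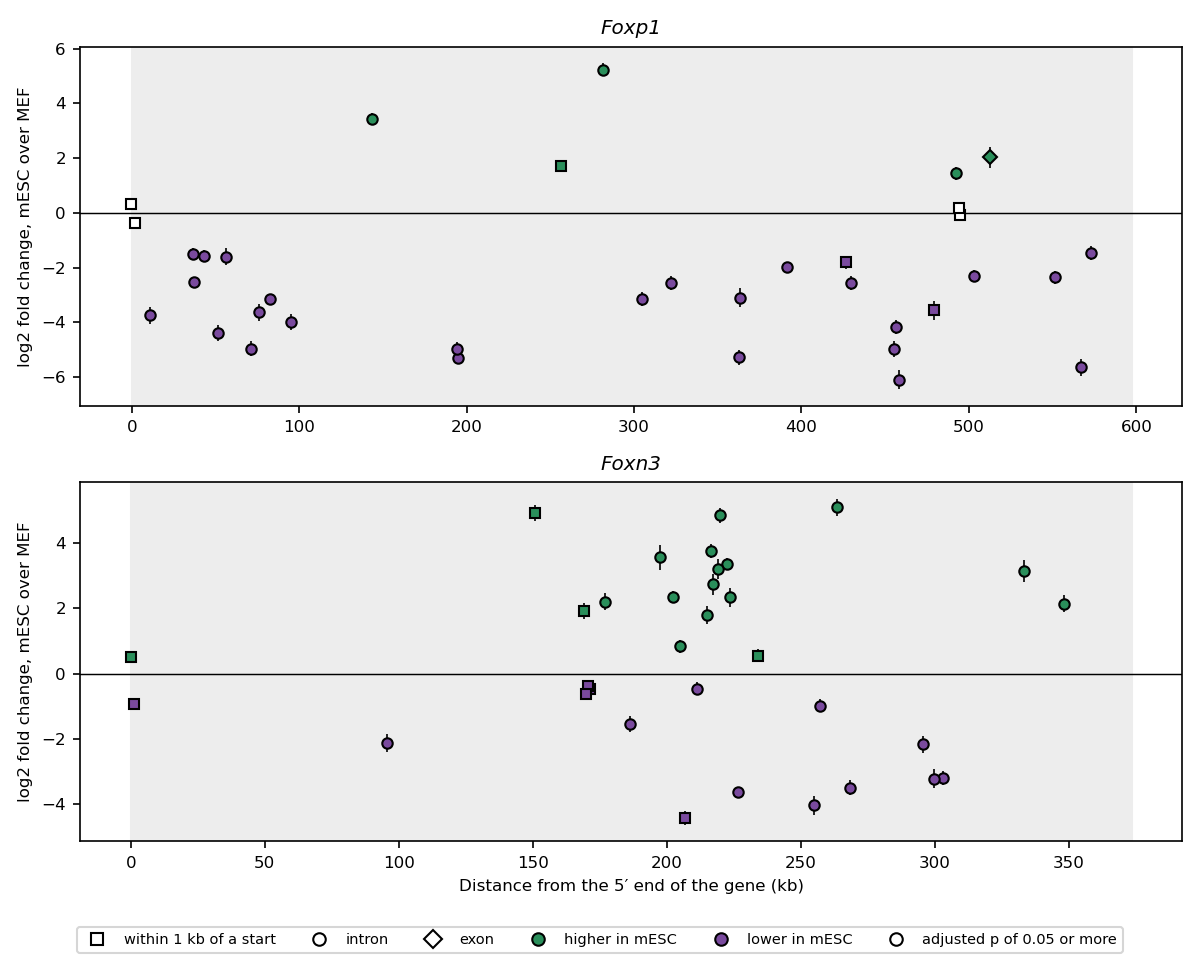
Log2 fold change (mESC over MEF, y axis) of each BGI peak of Foxp1 (upper panel) and Foxn3 (lower panel) against its distance from the 5′ end of the gene in kb; bars are standard errors, squares lie within 1 kb of a start, and open points have an adjusted p of 0.05 or more. Foxp1 has 27 lower peaks along the gene with 5 higher ones among them, and Foxn3 has 18 higher and 15 lower ones side by side.

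Start sites of the same gene could go opposite ways. Of 20 members with 2 or more promoter peaks on BGI, 3 had starts called in both directions, namely Foxn3, Foxp1 and Foxp4, beside 23.6% of protein-coding genes with as many promoter peaks, and on Illumina, which reads the same libraries, 3 of 31 had them, beside 23.8%. At Foxn3 the start inside peak 20 (chr12:99356581-99357082) had 37.9, 33.5 and 27.9 CPM in the MEF libraries and 2.46, 1.12 and 1.305 CPM in the mESC libraries, and the start at peak 30 (chr12:99412405-99412906) had 0.369, 0.596 and 0.797 CPM in the MEF libraries and 19.3, 20.3 and 16.96 CPM in the mESC libraries. Each was nearly closed in the other cell type, with log2 fold changes of -4.42 ± 0.22 (SE) and 4.93 ± 0.24 (SE) on BGI and -4.72 and 5.63 on Illumina. The start of Foxn3 with the most reads lay between them and fell by 0.46. At Foxp4 the start at peak 6 (chr17:47887618-47888119) had 2.22, 2.78 and 1.69 CPM in the MEF libraries and 27.8, 27.4 and 28.1 CPM in the mESC libraries, a log2 fold change of 3.57 ± 0.17 (SE), while peaks 4 and 11 had -1.61 and -0.67. Peak 6 held more CPM in mESCs than the start with the most reads over both cell types. At Foxp1 the starts at peaks 9 and 14 fell by 3.56 and 1.81 on the log2 scale, the start at peak 21 rose by 1.71, and the start with the most reads had -0.07.

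Other members had peaks of one direction. All 5 BGI peaks of Foxs1 were lower, with log2 fold changes from -3.70 to -0.75, and peak 2, in the flank after the gene, had 29.5, 26.9 and 26.5 CPM in the MEF libraries and 1.76, 1.36 and 3.603 CPM in the mESC libraries. Foxp2 had 4 of 5 lower, and its 3 intron peaks fell by 3.95 to 5.44 on the log2 scale while the promoter fell by 0.40. The 6 BGI peaks of Foxa1 and the 5 of Foxd3 were all higher, from 0.66 to 2.55 and from 0.79 to 2.11. Foxq1, a gene of hair follicles placed in the mesenchyme list, had no promoter peak but 3 higher exon peaks, with log2 fold changes of 1.36, 0.92 and 1.33. At Foxi3 a peak in the flank after the gene (chr6:70963957-70964458) had 0.369, 0.696 and 0.597 CPM in the MEF libraries and 35.2, 35.9 and 35.4 CPM in the mESC libraries, without overlap, a log2 fold change of 5.93 ± 0.19 (SE) beside 1.57 at the promoter. Foxl1 lies behind Foxc2 and Foxf1 on chromosome 8, and its BGI peak, centred at -2492 bases from the start, had 43.5, 39.2 and 37.7 CPM in the MEF libraries and 20.4, 15.9 and 21.8 CPM in the mESC libraries. It did not overlap between cell types and had a log2 fold change of -1.12 ± 0.12 (SE), and the BGI peaks of Foxf1 (3 lower of 3) and Foxc2 (3 lower of 4) included none that was higher, while on Illumina Foxf1 had 1 higher and 3 lower of 5. On chromosome 13, where Foxq1, Foxf2 and Foxc1 lie together, Foxq1 had 3 higher peaks on both platforms, Foxf2 had 1 higher and 1 lower on BGI and 1 and 2 on Illumina, and Foxc1 had 1 higher and 1 lower on BGI and 3 and 1 on Illumina.

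Promoters of genes that work with forkhead factors were more often lower than higher in mESCs, counted at the promoter peak with the most reads of each gene. Of 22 partner and regulator genes, which include SMADs, AKT and SGK kinases, 14-3-3 proteins, a deacetylase, ubiquitin proteases, corepressors, coactivators, an NFAT factor and an export factor, 3 were higher and 13 lower on BGI, and 2 were higher and 16 lower on Illumina, where by the same rule 22.1% and 44.1% of all protein-coding genes were higher and lower on BGI and 22.5% and 45.8% on Illumina. Losses were found at Nfatc2, a calcium-regulated factor that pairs with FOXP proteins (log2 fold change -2.05 ± 0.15 on BGI), and at Smad3, a partner of FOXH1 (-1.49 ± 0.10). Smad2 and Smad4 fell by 0.41 and 0.60. Akt2, which phosphorylates FOXO factors (0.50 ± 0.11), and Sirt1, which deacetylates them (0.41 ± 0.11), were higher on both platforms. Sgk3 was higher on BGI (1.38 ± 0.17) and at another peak was not called on Illumina (0.24 ± 0.14).

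The same libraries read on both machines allow forkhead peaks to be compared between sequencers. On the MEF peak set of both platforms, 0 of 156 forkhead peaks were higher on BGI and 13 were lower, beside 0.107% and 3.96% of all MEF peaks. On the mESC peak set 0 of 196 were higher and 24 lower, beside 0.0418% and 3.19%. With the library as a block, which pairs the 2 readings of a library, 20 were higher and 50 lower in MEFs, beside 13.9% and 15.3% of all peaks, and 3 were higher and 70 lower in mESCs, beside 5.78% and 15.6%. Most of the lower peaks lay at promoters, with 12 of 13 in MEFs and 19 of 24 in mESCs without the block and 42 of 50 and 56 of 70 with it, while 16 of the 20 peaks higher in MEFs with the block lay outside promoters. Among promoter peaks of all genes, 6.67% were higher and 36% lower with the block in MEFs and 3.3% and 34.4% in mESCs, where the family had 4 higher and 42 lower of 67 and 0 and 56 of 84. The median log2 fold change of the family's promoter peaks, BGI over Illumina in the blocked fit, was -0.32 in MEFs and -0.31 in mESCs, beside -0.10 and -0.10 over all promoter peaks. Outside promoters the family's median was 0.09 in MEFs and -0.03 in mESCs, and over all peaks of all genes it was 0.07 and 0.01. These promoter peaks had a median GC content of 66.1% and 66.3%, against 60.2% and 59.9% over all promoter peaks. With an offset for GC content and the block, 9 were higher and 11 lower in MEFs, beside 7.29% and 4.75% of all peaks, and 0 and 20 in mESCs, beside 3.27% and 5.47%, and with the offset alone 0 were called in either, beside 0.00323% higher and 0.0% lower of all peaks in MEFs and 0.00149% and 0.00298% in mESCs. DESeq2 with the block called 30 lower of the 121 forkhead peaks with an adjusted p in MEFs and 26 of 128 in mESCs, and 0 higher in either, beside 12.8% and 8.9% of all such peaks lower and 1.8% and 0.351% higher. Single libraries moved the counts without the block as well. In MEFs 0 were called without library 1 or without library 2 and 36 without library 4, and in mESCs 0 without library 1 or 5 and 12 without library 3.

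Foxa1 and Foxd2 show the size of these differences. The Foxa1 promoter peak of the MEF set had 6.89, 7.50 and 6.07 CPM on BGI and 10.6, 11.98 and 10.98 CPM on Illumina in libraries 1, 2 and 4. Each library was lower on BGI, and the log2 fold change was -0.73 ± 0.15 (SE, adjusted p = 0.027), and -0.18 with the block and the GC offset (adjusted p = 0.276). A promoter peak of Foxd2 had the largest difference among the forkhead peaks of the mESC set, -1.06 ± 0.15 (adjusted p = 0.00408), which was -0.77 with the block and the GC offset.

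**Figure D5:**
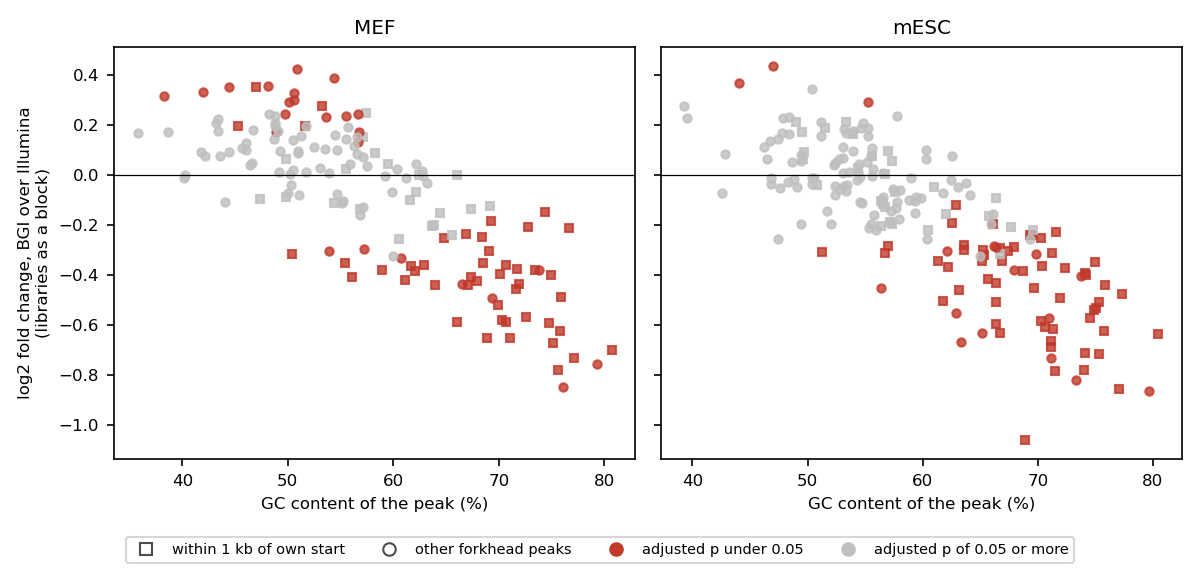
Log2 fold change of BGI over Illumina (y axis, fit with the libraries as a block) of forkhead peaks against the GC content of the peak in percent (x axis) in MEFs and mESCs; squares lie within 1 kb of an own start. The squares cluster at high GC and mostly below 0, with medians of -0.32 in MEFs and -0.31 in mESCs.

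Whether the difference between cell types itself differed between platforms was tested as an interaction on the BGI peak set. It was called at 0 of the 233 forkhead peaks by edgeR, as at 0.0% of all peaks, and the smallest adjusted p was 1.0. At an unadjusted p under 0.05 there were 7 forkhead peaks, beside 2.61% of all peaks. With the library as a block 0 of 233 were called, beside 0.386% of all peaks.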

How the data were processed

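The deposited tables hold raw read counts per peak for the 12 samples, and 0 columns were left unused. According to the study's methods, the authors trimmed reads with Cutadapt, cut Illumina reads to the length of the BGI reads, aligned with Bowtie2 to GRCm38 (mm10), removed duplicates with Picard, down-sampled to 60 M (MEF) or 45 M (mESC) reads, called summits per sample with MACS2, merged them into peak sets and counted reads with Subread. Trimming and down-sampling limit platform differences to those that remain at like depth. The peak calls per sample carry, as deposited, a −log10 p and a fold ratio of pileup over background; the −log10 p was used for members without a peak.

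Samples were grouped by cell type and platform from their labels. In the count tables only BGI columns name a platform, so the bare column of a library was read as its Illumina sample, on which every Illumina value rests. Across peaks, the log ratio of BGI to Illumina counts was checked against that of the fold values in the labelled peak calls (Spearman's rho 0.756 to 0.799 over the 6 libraries). Peaks were joined to GENCODE M21. Counts were tested with edgeR 4.0.16 (TMM, filterByExpr, quasi-likelihood F test, two-sided, Benjamini-Hochberg over all peaks, adjusted p under 0.05) in R 4.3.3, and with DESeq2 1.42.0 as an alternative. The BGI and Illumina comparisons read the same 6 libraries, so their values stand side by side and are not independent. The p-values between cell types measure the spread between 3 libraries a cell type. Those between platforms rest on 2 readings of the same 3 libraries, which the fit without the block treats as separate samples. With the block they measure the spread of the platform difference over these libraries. Named peaks were the promoter peak of each member with the most reads and, for members with at least 3 peaks, the called peak of lowest p in each direction. Some genes counted in the lists are not reported here by name. The members and lists were chosen with earlier results of these data known. The fits were tested on simulated data first. The replicate number marks the library, since both platforms read it, and the deviations of same-numbered samples from their group means had correlations from 0.618 to 0.837 (MEF libraries) and from 0.515 to 0.724 (mESC libraries), so the block of libraries is given beside the platform comparison. Alternatives were another normalization, filter, window, assignment, platform's columns, GC offset, block and each library left out. Python 3.11.15, pandas 2.3.3, scipy 1.17.1 and matplotlib 3.10.9 were used.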

Additional observations from a re-analysis of the deposited data

How the results depend on the processing

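The counts of called forkhead peaks between cell types stayed within 1.5 times under the other tests, normalizations and filters, with 186 to 192 called on BGI and 193 to 202 on Illumina when 1 library was left out. They moved where fewer peaks could count, with 57 lower BGI and 55 lower Illumina peaks at a log2 fold change of at least 1, and with 106 (48 higher, 58 lower) and 115 (57 higher, 58 lower) peaks when the nearest TSS had to be a forkhead gene's. Without Foxp1, a choice made after seeing the data, 24 intron peaks were lower on BGI and 23 on Illumina, and without Foxp1 and Foxn3, chosen likewise, 46 and 50 of all the family's peaks were lower. With the gene body alone 4 genes had no BGI peak, and with 10 kb 1 gene had no Illumina peak. Library sizes at the down-sampled depths raised the median of all peaks by 0.141 on BGI and 0.126 on Illumina (log2). The labels link no MEF library to a mESC library, so the cell types were not paired. Between platforms, the replicate block gave 70 called peaks in MEFs (20 higher, 50 lower) and 73 in mESCs (3 higher, 70 lower). The block with a GC offset gave 20 in MEFs (9 higher), and the GC offset alone 0 in both. DESeq2 gave 28 in MEFs and 17 in mESCs, and 30 and 26 with the block, with 0 higher on BGI in each. Leaving out 1 library gave between 0 and 36 (MEF) and between 0 and 12 (mESC), and the cause was not tested. The interaction stayed at 0 under each alternative.

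Some promoters had a log2 fold change that turned sign. Foxa3 was at 1.12 on BGI and 1.07 on Illumina with a TSS window of 500 bp, which takes another peak; that window gave -0.36 at Foxl1 on Illumina. At the down-sampled depths Foxd2 had 0.011 (BGI) and 0.039 (Illumina), Foxo1 0.067 (Illumina), Foxo4 0.079 (BGI) and Foxp1 0.076 (BGI) and 0.020 (Illumina). With the other platform's columns on the BGI peaks Foxo1 had -0.059 and Foxo4 0.053, and on the Illumina peaks Foxo1 had 0.002, Foxo4 -0.094, Foxe1, called higher in mESCs on its own columns, -0.010, Foxl1 -0.42 and Foxp3 -0.025. With reads of both platforms summed Foxo1 had -0.012 and Foxo4 0.006. Leaving out single libraries, the log2 fold change ranged from -0.057 to 0.144 at the promoter peak of Foxo1 on BGI, from -0.205 to 0.027 at that of Foxo4 and from -0.137 to 0.059 at the promoter peak of Foxp1 on BGI. On Illumina it ranged from -0.002 to 0.093 at Foxj2, from -0.096 to 0.123 at Foxj3, from -0.038 to 0.194 at Foxl1, from -0.174 to 0.002 at Foxo1 and from -0.049 to 0.169 at Foxo4.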
